A study of Rattus norvegicus with 6 samples.

Results

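Genes of the TNF superfamily were compared between Schwann cell precursors (SCPs) and repair Schwann cells (RSCs) of the rat. The members were all gene symbols of the form Tnfsf or Tnfrsf followed by a number, with or without a final letter, together with Tnf, Lta, Ltb, Fas, Faslg, Cd40, Cd40lg and Cd27. This gave 38 genes, 16 ligands and 22 receptors, among the 29468 gene symbols of the expression tables. RNA was sequenced in bulk from 3 SCP samples and 3 RSC samples, all of them from rats of the LEWIS strain, whose genotype the labels give as wild type. The study's methods instead derive the cells for grafting from LEWIS rats with a fluorescent protein transgene, describe 1 preparation for grafting and for RNA, and do not say separately which rats the RNA came from. SCPs were dissociated without treatment from the sciatic nerves and brachial plexus of embryos at embryonic day 14 (E14). RSCs were dissociated from the part of the sciatic nerve distal to a cut, taken 1 week after the transection from rats that the labels give as 10 weeks old. The methods describe a longer digestion, with more collagenase, for adult nerves than for embryonic nerves. Tissue, age, injury and digestion therefore differed together between the groups and cannot be told apart. According to the methods, the epineurium of adult nerves was removed, and after dissociation the cells that attached to an uncoated flask, such as fibroblasts and macrophages, were discarded. Most cells of both preparations were labelled for Sox10 by the study, but in plated and cultured cells, whereas cells for RNA were suspended in saline. No sort is described, and in such bulk samples fewer cells of a type and less RNA per cell cannot be told apart. Values are FPKM, fragment numbers divided by transcript length in kilobases and by the size of the library, which allow genes of different length to be set side by side.

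Ligands of the TNF superfamily are mostly membrane proteins that form trimers and can be cut from the cell surface, and each binds 1 or a few receptors of the family. Receptors with a death domain can start apoptosis through the adaptor FADD and caspase-8, whereas many others recruit TRAF proteins and activate NF-kB. In injured nerve TNF is known as an early cytokine of Wallerian degeneration, made by Schwann cells and by macrophages.

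The promoters of the receptors with the greatest change are shown first, since these genes carried most of the family's FPKM in RSCs. They are RefSeq sequences on GRCr8, a later build than the rn6 build of the expression tables, and run from 250 bases before to 50 bases after the annotated start, 5′ to 3′ on the strand of the gene. A promoter entry was found for 28 of the 38 members, and Tnfsf12, the ligand with the greatest change, was not among them. Capitals mark matches, on either strand, to the AP-1 motif TGANTCA or the GC box GGGCGG. The windows are chr10:13213599-13213898 (minus strand) for Tnfrsf12a, chr5:162387362-162387661 (minus strand) for Tnfrsf1b, chr4:159836869-159837168 (plus strand) for Tnfrsf1a and chr9:25451274-25451573 (minus strand) for Tnfrsf21.
Tnfrsf12a: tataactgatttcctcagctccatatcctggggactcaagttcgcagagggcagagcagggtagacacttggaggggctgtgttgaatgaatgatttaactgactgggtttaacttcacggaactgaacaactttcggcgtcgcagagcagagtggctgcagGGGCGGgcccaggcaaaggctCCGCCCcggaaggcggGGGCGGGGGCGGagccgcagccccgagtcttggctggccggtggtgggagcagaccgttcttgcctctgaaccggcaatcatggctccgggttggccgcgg
Tnfrsf1b: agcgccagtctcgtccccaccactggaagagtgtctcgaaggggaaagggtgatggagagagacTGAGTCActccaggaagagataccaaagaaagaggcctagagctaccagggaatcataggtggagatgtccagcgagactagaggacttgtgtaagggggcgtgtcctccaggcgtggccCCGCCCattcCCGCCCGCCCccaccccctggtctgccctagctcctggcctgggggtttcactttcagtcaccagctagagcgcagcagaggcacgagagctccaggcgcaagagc
Tnfrsf1a: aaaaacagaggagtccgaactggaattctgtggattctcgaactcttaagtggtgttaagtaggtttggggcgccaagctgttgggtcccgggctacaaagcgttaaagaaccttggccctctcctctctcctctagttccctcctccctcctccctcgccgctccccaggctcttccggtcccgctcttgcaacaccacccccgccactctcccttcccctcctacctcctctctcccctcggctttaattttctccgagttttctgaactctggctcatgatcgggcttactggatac
Tnfrsf21: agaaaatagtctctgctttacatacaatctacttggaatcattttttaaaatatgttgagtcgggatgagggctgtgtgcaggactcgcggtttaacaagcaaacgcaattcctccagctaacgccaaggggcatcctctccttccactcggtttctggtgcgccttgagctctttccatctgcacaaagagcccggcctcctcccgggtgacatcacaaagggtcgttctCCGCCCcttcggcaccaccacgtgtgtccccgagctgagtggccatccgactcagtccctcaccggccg
The Tnfrsf12a window held 4 GC boxes and the Tnfrsf1b window held 3, with 1 AP-1 match farther from the start. The Tnfrsf21 window held 1 GC box, and the Tnfrsf1a window held no match to these motifs. GC boxes were found in 15 of the 28 member promoters (53.6%) and in 33.1% of all 33469 RefSeq promoters of the same length. For each motif, members were counted with 1 promoter per gene and the background with every RefSeq entry, so the shares differ in unit. AP-1 matches were found in 3 of the 28, those of Fas, Tnfrsf1b and Tnfrsf8 (10.7%), against 7.33% of all promoters. The NF-kB motif was searched on both strands too, and was found in the promoters of Lta, Ltb, Tnfrsf8 and Tnfsf14 (14.3%), against 4.18% of all promoters. Such matches describe the letters of these windows and say nothing of binding.

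The family was higher in RSCs in most of its expressed members. Genes were compared by limma on log2(FPKM + 1), as RSC minus SCP, where the mean over the 6 samples was at least 1 FPKM. A gene was called at an unadjusted p under 0.01. The added 1 makes differences of low genes look smaller than they are. Of the 17 members tested, 13 were called higher in RSCs, 4 ligands and 9 receptors, and 18.1% of all 13003 tested genes were called in that direction. No member was called higher in SCPs, a direction in which 22.4% of all tested genes were called. On this scale 5 members exceeded a 4-fold difference toward RSCs, Tnfrsf12a, Tnfsf12, Tnfrsf1b, Tnfrsf1a and Tnfrsf21, where the share over all tested genes was 7.81%. The median log2 difference was 1.72 over the tested members and -0.17 over all tested genes. However, 8 of the 17 reached the mean of 1 FPKM through RSCs alone and had to be higher there, so the tested members do not stand for the family. These were Tnf, Tnfsf9, Tnfsf13, Tnfsf13b, Tnfrsf1b, Tnfrsf9, Tnfrsf11a and Fas, and the direction of their differences was set by the filter. Of the 8 members whose SCP mean and RSC mean both reached 1 FPKM, 6 were called higher in RSCs and none overlapped between the groups. Among all 10838 genes with both means at that level, 14.9% were called higher in RSCs, and in 22.0% all RSC values lay above all SCP values.

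Over all 38 members, the mean FPKM was higher in RSCs in 36 and higher in SCPs in Tnfrsf17 and Tnfrsf19. All 3 RSC values lay above all 3 SCP values in 20 members, and the reverse held in 0. The same separation in favour of RSCs was found in 19.6% of the 20494 symbols with a value above 0. A mean of at least 1 FPKM was reached by 9 members in SCPs and by 22 in RSCs. Summed receptor FPKM was 33.2 to 34.9 in the SCP samples and 236 to 288 in the RSC samples. Summed ligand FPKM was 2.56 to 9.63 in SCPs and 75.2 to 87.9 in RSCs. Tnfrsf1a held the largest part of the receptor sum in each SCP sample, 36.0% to 41.3%, and Tnfrsf12a in each RSC sample, 43.5% to 52.6%. Tnfsf12 held the largest part of the ligand sum in every sample except SCP replicate 3, where it was listed at 0 and Tnf came first.

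**Figure D1:**
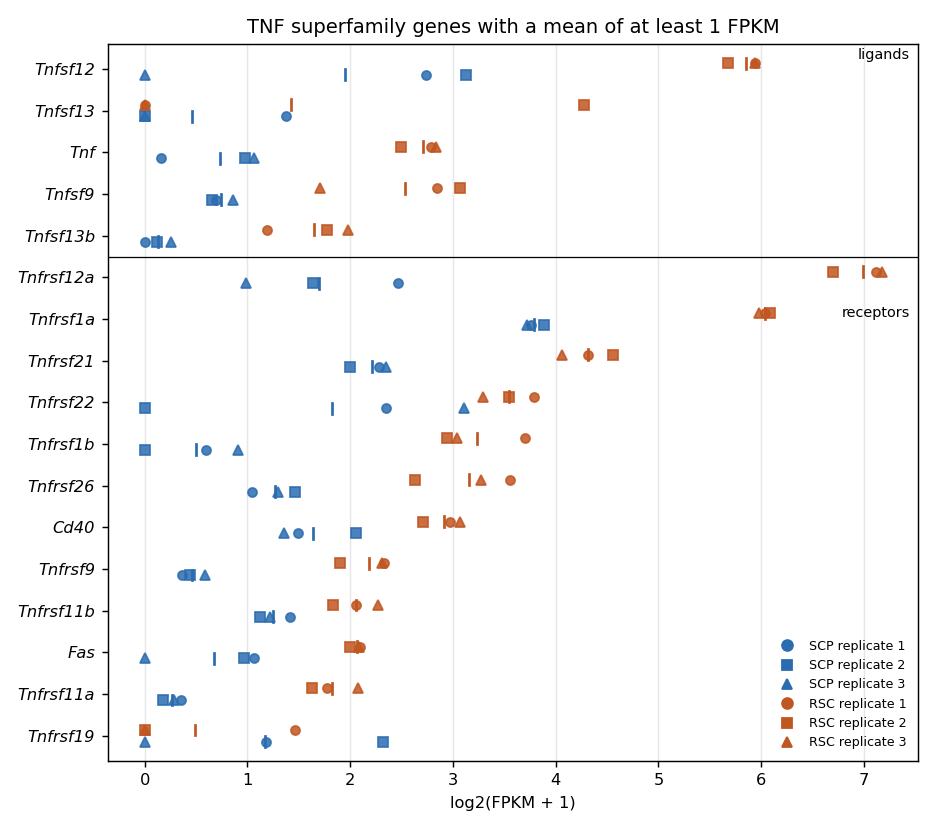
FPKM of the 17 tested TNF superfamily genes on the log2(FPKM + 1) scale (horizontal axis), ligands above the line and receptors below, with each sample as a point and group means as vertical bars. RSC points lie to the right of all SCP points in 15 of the 17 genes, with Tnfsf13 and Tnfrsf19 the exceptions, and Tnfrsf12a has the highest RSC values.

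The samples differed in more than their Schwann cells. Sox10, a transcription factor of the Schwann cell lineage, was 175 to 181 FPKM in SCPs and 143 to 149 FPKM in RSCs, whereas S100b was 3.21 to 19.3 FPKM in SCPs and 782 to 924 FPKM in RSCs. Markers of leukocytes were higher in RSCs, with 5 of 5 pan-leukocyte and 11 of 11 tested macrophage and monocyte markers called, of which 1 and 3 reached the filter through RSCs alone. Macrophage markers summed to 19.6 to 54.0 FPKM in SCPs and to 2673 to 3388 FPKM in RSCs, and pan-leukocyte markers to 11.5 to 19.3 and 232 to 255 FPKM, with none of either list at 0 in every sample of a group. T and NK cell markers summed to 1.16 to 1.52 FPKM in SCPs, where Cd3e, Cd3d, Cd2, Cd8a, Klrd1, Gzmb and Prf1 were listed at 0 in every sample, and to 110 to 135 FPKM in RSCs, where Cd4 alone gave 68.2 to 119 FPKM and macrophages of the rat carry CD4 too. The 7 tested markers of that list all reached the filter through RSCs alone, so their direction was set by it. Of 8 fibroblast markers, 7 were called higher in RSCs, with sums of 643 to 1022 and 5380 to 8029 FPKM. Of the 7, Dpt reached the filter through RSCs alone. Skeletal muscle markers summed to 50.8 to 178 FPKM in SCPs and to 0.155 to 1.89 FPKM in RSCs, and the 5 tested genes reached the filter through SCPs alone. The part of these cells in the values of the TNF superfamily was not tested. Depth is unknown because the tables hold no counts, and relative depth was 0.88 to 1.00 in SCPs and 0.79 to 0.84 in RSCs.

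Tnfrsf12a, the receptor for the cytokine TWEAK (FN14), changed most. The gene, at chr10:12995904-12997930 on rn6, stood at 4.51, 2.1 and 0.98 FPKM in SCP replicates 1 to 3 and at 137, 103 and 143 FPKM in RSC replicates 1 to 3. Every RSC value was far above every SCP value, and the lowest values were those of SCP replicates 2 and 3. The means were 2.53 ± 1.80 and 128 ± 21.8 FPKM (SD, n = 3), a 50.5-fold ratio, and the log2 difference was 5.30 (SE 0.38, limma, adjusted p = 0.00019). Cufflinks had also assembled transcripts without a gene name at some loci, and adding those that share the locus of Tnfrsf12a gave 4.51, 4.76 and 5.63 FPKM in SCPs and 137, 123 and 143 FPKM in RSCs. The spread within each group was then smaller, and the log2 difference was 4.51 (SE 0.11).

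The ligand TWEAK is encoded by Tnfsf12 at chr10:56290780-56300317. Tnfsf12 stood at 5.65, 7.74 and 0 FPKM in SCPs and at 60.2, 50.2 and 60.5 FPKM in RSCs. The groups did not overlap, and SCP replicate 3 alone was listed at 0. The log2 difference was 3.90 (SE 0.82, limma, adjusted p = 0.0103) and fell to 2.92 without SCP replicate 3. The call was lost when any of the 3 RSC samples was left out. Tnfsf13, which encodes the B cell factor APRIL, lies 89 bases from Tnfsf12 at chr10:56286964-56290690. It was listed at 1.59, 0 and 0 FPKM in SCPs and at 0, 18.4 and 0 FPKM in RSCs. RSC replicate 2, the only RSC sample with a value for Tnfsf13, had the lowest RSC value for Tnfsf12, and Cufflinks placed both genes in 1 locus with Senp3. How reads were divided between these genes in each sample is uncertain. Tnfsf13 was not called (log2 difference 0.97, SE 1.25, limma, adjusted p = 0.561).

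Tnf and both of its receptors were higher in RSCs. However, Tnf and Tnfrsf1b reached the filter through RSCs alone, so their direction was set by it. Tnf, at chr20:5189382-5192000, stood at 0.116, 0.971 and 1.10 FPKM in SCPs and at 5.88, 4.64 and 6.14 FPKM in RSCs. All RSC values were above the SCP values, with a log2 difference of 1.97 (SE 0.31, limma, adjusted p = 0.0034). Tnfrsf1a, the broadly expressed receptor TNFR1 with a death domain, lies at chr4:157864916-157877634. It stood at 12.6, 13.8 and 12.2 FPKM in SCPs and at 64.6, 66.9 and 62.1 FPKM in RSCs. The replicates of each group lay close together and the groups far apart, with means of 12.8 ± 0.867 and 64.5 ± 2.44 FPKM (SD, n = 3) and a log2 difference of 2.24 (SE 0.09, limma, adjusted p = 3.5e-05). This was the smallest standard error among the tested members. Tnfrsf1b, the receptor TNFR2 that lacks a death domain and is prominent on leukocytes, lies at chr5:163136390-163167299. It stood at 0.51, 0 and 0.873 FPKM in SCPs and at 12.0, 6.70 and 7.24 FPKM in RSCs. No SCP value reached the RSC values, and the log2 difference was 2.73 (SE 0.34, limma, adjusted p = 0.0014). With unnamed transcripts, the RSC samples stood at 12.0, 12.6 and 12.5 FPKM, and the log2 difference was 2.98 (SE 0.14).

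Lta and Ltb encode lymphotoxins, of which the first binds the TNF receptors and both together bind the lymphotoxin beta receptor. Both were listed at 0 in every SCP sample and were too low to test. Ltb, which ends 2905 bases from Tnf, stood at 2.25, 0.393 and 0.73 FPKM in RSCs, and Lta at 0.0911, 0 and 0 FPKM. Ltb was thus above 0 in each RSC sample and highest in replicate 1. The lymphotoxin beta receptor gene Ltbr is not a member under the symbols used and was looked up after values of the family were known. Ltbr stood at 35.1, 32.8 and 43.8 FPKM in SCPs and at 72.2, 67.4 and 60.5 FPKM in RSCs, with no overlap and a log2 difference of 0.83 (SE 0.14, limma, adjusted p = 0.004).

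Among the death receptors of the 38 members, Tnfrsf21, which encodes DR6, had the highest mean FPKM after Tnfrsf1a in named transcripts. Located at chr9:20546159-20621051, it stood at 3.85, 2.98 and 4.10 FPKM in SCPs and at 18.9, 22.6 and 15.7 FPKM in RSCs. The groups were well separated, with a log2 difference of 2.11 (SE 0.19, limma, adjusted p = 0.00042). Fas, the receptor for Fas ligand, lies at chr1:252589785-252624790 and stood at 1.10, 0.956 and 0 FPKM in SCPs and at 3.28, 2.99 and 3.26 FPKM in RSCs. RSC values were above all SCP values, with a log2 difference of 1.38 (SE 0.34, limma, adjusted p = 0.018). In named transcripts Fas reached the filter through RSCs alone, so its direction was set by it. With unnamed transcripts SCP replicate 3 was at 1.18 FPKM, not 0, and the log2 difference was 1.01 (SE 0.14). The call of Fas was lost in 8 of 17 alternatives, among them a pseudocount of 0.1 and leaving out SCP replicate 2 or any RSC sample. Its ligand Faslg was too low to test, at 0.232, 0.113 and 0.254 FPKM in SCPs and 0.585, 0.134 and 0.851 FPKM in RSCs, and the groups overlapped.

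Tnfrsf10b encodes the receptor for TRAIL, whose gene is Tnfsf10. In named transcripts Tnfrsf10b was below 1.90 FPKM in every sample, but its locus held unnamed transcripts too. With them it stood at 12.1, 3.54 and 3.86 FPKM in SCPs and at 2.01, 1.89 and 1.77 FPKM in RSCs. This was a separation toward SCPs, the opposite of the order of its means in named transcripts, although the log2 difference of -1.19 (SE 0.41) was not called (limma, adjusted p = 0.037). Tnfsf10 had no value above 0 in SCPs and was listed at 2.19, 1.44 and 0 FPKM in RSCs. With unnamed transcripts RSC replicate 3 was at 4.11 FPKM, so that all 3 RSC samples had a value, and the log2 difference was 1.77 (SE 0.29, limma, adjusted p = 0.0017). Tnfsf10 reached the filter of that fit through RSCs alone, so its direction was set by it. Tnfrsf25, the death receptor DR3, was at 0, 0.956 and 0 FPKM in SCPs and 0.934, 1.17 and 1.06 FPKM in RSCs. SCP replicate 2 overlapped the RSC values. Its ligand Tnfsf15 was above 0 only in RSC replicate 1, at 1.11 FPKM.

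Tnfrsf22 and Tnfrsf26 are neighbouring rodent receptor genes on chromosome 1, 16.4 kb apart, and how Cufflinks divided reads between such related genes is not stated. Tnfrsf26, at chr1:216808642-216829366, stood at 1.07, 1.76 and 1.46 FPKM in SCPs and at 10.8, 5.19 and 8.65 FPKM in RSCs. The groups did not overlap, and the log2 difference was 1.88 (SE 0.30, limma, adjusted p = 0.0034). Tnfrsf22, at chr1:216845789-216859606, was listed at 4.09, 0 and 7.64 FPKM in SCPs and at 12.8, 10.7 and 8.82 FPKM in RSCs. Its values did not overlap either, but the 0 in SCP replicate 2 gave a wide error, and it was not called (log2 difference 1.72, SE 0.79, limma, adjusted p = 0.125). With unnamed transcripts this sample was at 10.3 FPKM and the log2 difference was 0.93 (SE 0.29, limma, adjusted p = 0.026).

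**Figure D2:**
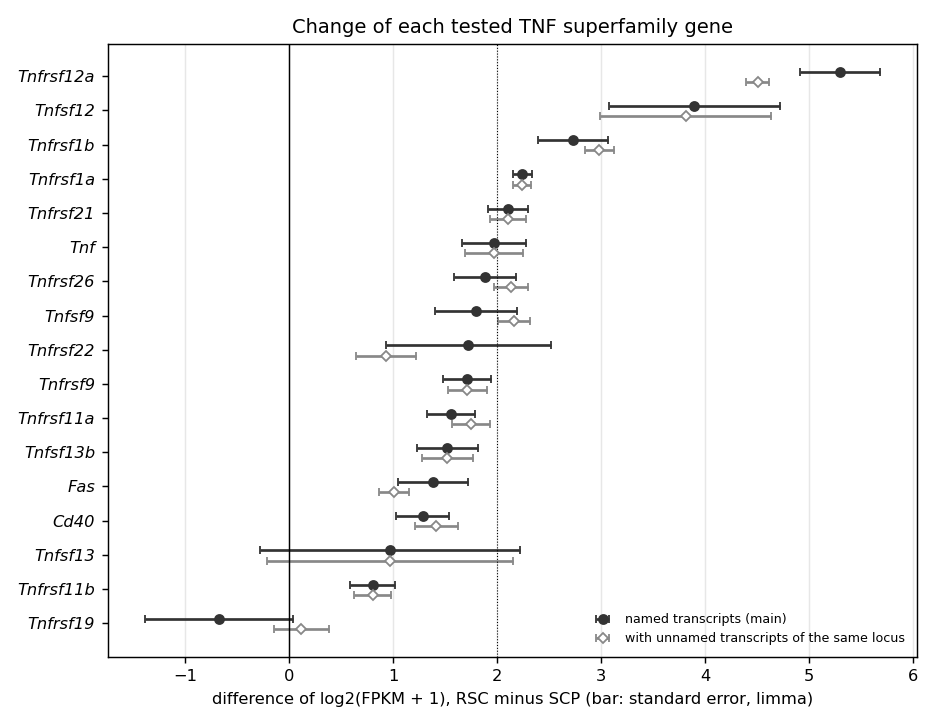
Difference of log2(FPKM + 1), RSC minus SCP (horizontal axis), for the 17 tested genes with standard errors, from named transcripts (filled circles) and with unnamed transcripts of the same Cufflinks locus (open diamonds). The dotted line marks a log2 difference of 2, which Tnfrsf12a, Tnfsf12, Tnfrsf1b, Tnfrsf1a and Tnfrsf21 exceed in both versions, and Tnfrsf19 moves from -0.68 to 0.11.

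Receptors and ligands of immune costimulation made up most of the other members. CD40, a receptor of antigen-presenting cells, is encoded at chr3:161519788-161534943. Cd40 stood at 1.81, 3.16 and 1.56 FPKM in SCPs and at 6.84, 5.53 and 7.41 FPKM in RSCs. The groups were apart, with a log2 difference of 1.28 (SE 0.25, limma, adjusted p = 0.0082), but the call was lost without RSC replicate 1 or without RSC replicate 3. Its ligand gene Cd40lg, a product of activated T cells, was above 0 only in RSC replicate 1, at 1.06 FPKM.

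The receptor 4-1BB and its ligand were both called, but both genes reached the filter through RSCs alone, so their direction was set by it. Tnfrsf9, the receptor gene at chr5:168009041-168035813, stood at 0.29, 0.358 and 0.502 FPKM in SCPs and at 4.01, 2.73 and 3.97 FPKM in RSCs. Tnfsf9, the ligand gene at chr9:9909942-9912276, stood at 0.619, 0.578 and 0.816 FPKM in SCPs and at 6.18, 7.37 and 2.26 FPKM in RSCs. Neither gene overlapped between the groups, and RSC replicate 3 was the lowest RSC sample for the ligand. The log2 difference was 1.71 (SE 0.23, limma, adjusted p = 0.0019) for Tnfrsf9. For Tnfsf9 it was 1.80 (SE 0.40, limma, adjusted p = 0.012), and this call was lost when any sample other than RSC replicate 3 was left out. With unnamed transcripts RSC replicate 3 was at 5.94 FPKM for Tnfsf9, close to the other RSC samples, and the log2 difference was 2.16 (SE 0.15).

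The other costimulatory members were below the filter. Cd27 stood at 0.125, 0.127 and 0.132 FPKM in SCPs and at 1.56, 0.276 and 0.879 FPKM in RSCs. Tnfrsf4, which encodes OX40, stood at 0.631, 0.588 and 0.888 FPKM in SCPs and at 3.30, 0 and 0.494 FPKM in RSCs. Tnfrsf18, which encodes GITR, was at 0.057 FPKM in SCP replicate 2 and at 1.93 FPKM in RSC replicate 1, and was listed at 0 in the other samples. Cd27 was thus higher in all RSC samples, whereas OX40 and GITR were high in RSC replicate 1 alone. The same library had the highest values of the T cell markers Cd3e (2.93, 1.25 and 1.71 FPKM in RSC replicates 1 to 3) and Cd3d (6.21, 2.06 and 3.05 FPKM). Of the other T and NK cell markers, Cd3g, Cd2, Cd5, Nkg7, Klrd1 and Prf1 were highest there too. However, Cd8a and Gzmb were highest in RSC replicate 3 and Cd4 in RSC replicate 2. Fas, Ltb, Cd27, Tnfrsf4, Tnfrsf9, Tnfrsf26, Tnfsf8, Tnfsf11 and Tnfsf14 had the same order of RSC samples as Cd3d. In that order replicate 1 was highest and replicate 2 lowest. Other members had other orders, among them Faslg and Tnf, which were highest in RSC replicate 3. The share of all genes with the order of Cd3d was not computed. Members were set beside the T cell markers after their values were seen, and the part of T cells in them was not tested.

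The ligand genes of this group were low as well. Tnfsf14, whose product LIGHT binds the receptor encoded by Tnfrsf14, was listed at 0 in SCPs and stood at 0.793, 0.367 and 0.778 FPKM in RSCs. Tnfsf8, the CD30 ligand gene, was likewise listed at 0 in SCPs and stood at 0.767, 0.237 and 0.296 FPKM in RSCs. Both were above 0 in every RSC sample and in no SCP sample. The receptor gene Tnfrsf14 stood at 0.39 to 0.832 FPKM in SCPs and 0.542 to 1.40 FPKM in RSCs, which overlapped. Tnfrsf8, the receptor for CD30 ligand, was above 0 only in RSC replicates 2 and 3, at 0.239 and 0.253 FPKM. Tnfsf4, the OX40 ligand gene, was above 0 in the same samples, at 0.12 and 0.51 FPKM. Tnfsf18, the GITR ligand gene, was at 0.0757 to 0.144 FPKM in SCPs and at 0.609, 2.04 and 0 FPKM in RSCs. Unnamed transcripts raised RSC replicates 1 to 3 to 3.35, 4.40 and 2.70 FPKM and left the SCP samples as they were, so that the groups were apart. The log2 difference was then 1.99 (SE 0.19, limma, adjusted p = 0.00017). Tnfsf18 reached the filter of that fit through RSCs alone, so its direction was set by it.

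**Figure D3:**
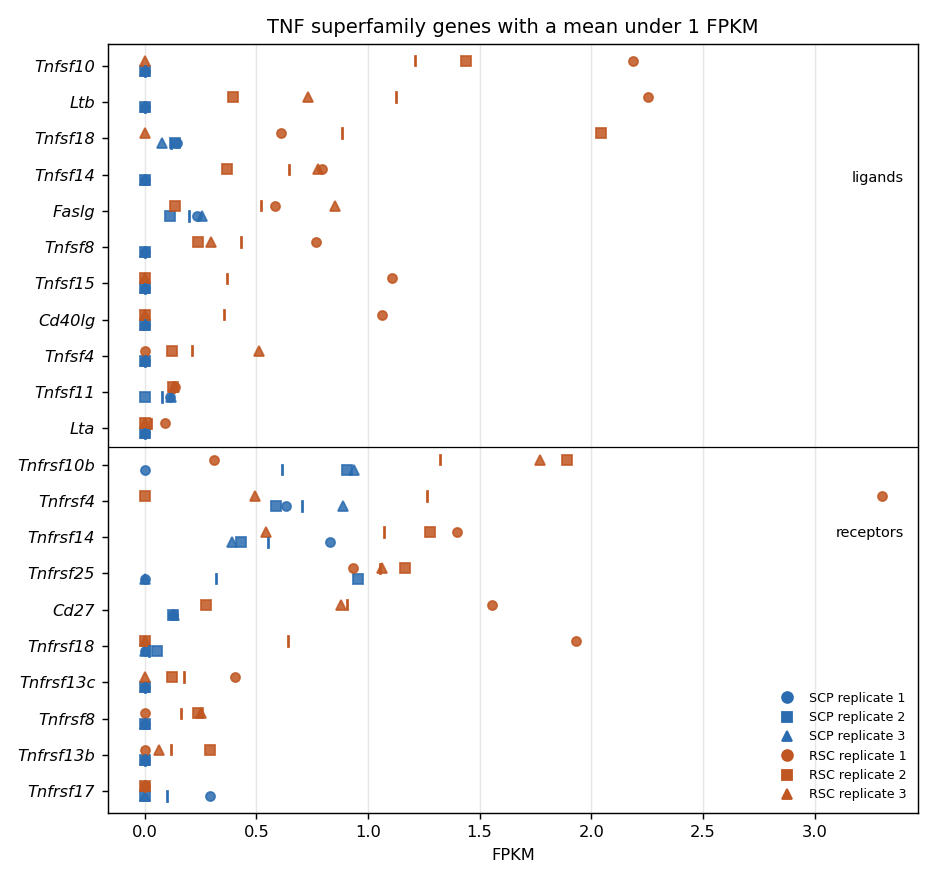
FPKM (horizontal axis, linear) of the 21 TNF superfamily genes with a mean under 1 FPKM, 11 ligands above the line and 10 receptors below, with each sample as a point and group means as vertical bars. The highest value is 3.30 FPKM, for Tnfrsf4 in RSC replicate 1, and Cd27, Ltb, Tnfsf8, Tnfsf11 and Tnfsf14 are the 5 genes in which all RSC points lie to the right of all SCP points. For Tnfsf11 the gap is narrow, from 0.12 FPKM in SCPs to 0.126 FPKM in RSCs.

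Members of the RANK and osteoprotegerin system, known from osteoclast formation, were present as receptors more than as ligand. Tnfrsf11a, which encodes RANK, lies at chr13:25778306-25835802 and stood at 0.275, 0.129 and 0.218 FPKM in SCPs and at 2.43, 2.09 and 3.22 FPKM in RSCs. Tnfrsf11b, which encodes the soluble decoy receptor osteoprotegerin, lies at chr7:93798580-93826586 and stood at 1.66, 1.18 and 1.33 FPKM in SCPs and at 3.15, 2.57 and 3.82 FPKM in RSCs. Neither overlapped between the groups. The log2 difference of Tnfrsf11a was 1.56 (SE 0.23, limma, adjusted p = 0.0028), but this gene reached the filter through RSCs alone, so its direction was set by it. The log2 difference of Tnfrsf11b was 0.80 (SE 0.22) and just missed the threshold (limma, unadjusted p = 0.011, adjusted p = 0.027). The RANK ligand gene Tnfsf11 was at 0 to 0.12 FPKM in SCPs and at 0.126 to 0.137 FPKM in RSCs. This gap was narrow, relative depth was lower in RSCs, and the part of depth in it was not tested.

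Of the factors of B cell survival, Tnfsf13b was called. Tnfsf13b, which encodes BAFF, a product of myeloid cells, lies at chr16:85275690-85306412. It stood at 0, 0.0891 and 0.198 FPKM in SCPs and at 1.28, 2.43 and 2.95 FPKM in RSCs. All RSC values were above the SCP values, with a log2 difference of 1.52 (SE 0.29, limma, adjusted p = 0.0071). Tnfsf13b reached the filter through RSCs alone, so its direction was set by it. Its receptor genes Tnfrsf13b, Tnfrsf13c and Tnfrsf17 were at 0.402 FPKM or lower in every sample. Tnfrsf17 was the member listed at 0 in every RSC sample. The B cell markers Ms4a1 and Pax5 were listed at 0 in all 6 samples, and the 6 B cell markers together summed to 0.429 to 0.942 FPKM in SCPs and 0.171 to 2.73 FPKM in RSCs.

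Tnfrsf19, which encodes TROY, a receptor of the nervous system, was the tested member with the higher mean in SCPs. At chr15:41249820-41316203, it was listed at 1.27, 3.98 and 0 FPKM in SCPs and at 1.75, 0 and 0 FPKM in RSCs. The groups overlapped and it was not called (log2 difference -0.68, SE 0.71, limma, adjusted p = 0.471). With unnamed transcripts of its locus it stood at 6.36, 3.98 and 5.64 FPKM in SCPs and at 8.39, 4.06 and 5.50 FPKM in RSCs, with no sample at 0. These groups overlapped as well, and the log2 difference was 0.11 (SE 0.27, limma, adjusted p = 0.722).

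Over the whole family, 15 members had unnamed transcripts at their locus in at least 1 sample. With these added, a choice made after seeing the data, 22 members were tested, of which 16 were called higher in RSCs and 0 in SCPs, where 23.2% of 14020 tested genes were called higher in RSCs. As before, 10 of the 22 reached the filter through RSCs alone and had to be higher there, and of the 12 with both means at 1 FPKM or more, 8 were called. The 4-fold difference was then exceeded by 7 members. For both of these counts the share over all genes was not computed, so neither can be set against a background. Some values of 0 in the named transcripts, such as those of Tnfrsf19, Tnfrsf22 and Fas, were therefore not an absence of fragments at the locus.

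Genes that act with these receptors were taken from lists written with earlier results of these data known. Of the superfamily genes under other symbols, Ngfr, the neurotrophin receptor p75, had the highest FPKM, with 233, 173 and 231 in SCPs and 1046, 803 and 1068 in RSCs. All RSC values were above the SCP values (log2 difference 2.19, SE 0.17, limma, adjusted p = 0.00022), and they were higher than those of any member. Eda, the ectodysplasin ligand gene, stood at 0.475, 0.548 and 0.187 FPKM in SCPs and at 2.27, 2.13 and 1.59 FPKM in RSCs. It was called (log2 difference 1.10, SE 0.24), a call lost in 6 of 16 alternatives. Eda reached the filter through RSCs alone, so its direction was set by it. Relt stood at 6.72, 2.35 and 4.5 FPKM in SCPs and at 9.37, 7.19 and 15.5 FPKM in RSCs and was not called (log2 difference 1.10, SE 0.40, limma, adjusted p = 0.068), although it passed the threshold with unnamed transcripts (log2 difference 0.74). The rest of the list, Edar, Eda2r and Cd70, was too low to test, each at 1.02 FPKM or lower in every sample.

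Of 17 tested adaptors and TRAFs, 4 were called higher in RSCs and 1 in SCPs, with a median log2 difference of 0.44, where the shares over all tested genes were 18.1% and 22.4%. Of the 4, Fadd and Traf1 reached the filter through RSCs alone, so their direction was set by it. Traf4, a member of the TRAF family expressed in embryonic tissue, was the gene higher in SCPs. It stood at 151, 115 and 136 FPKM in SCPs and at 8.22, 11.4 and 13.2 FPKM in RSCs, a log2 difference of -3.52 (SE 0.19, limma, adjusted p = 7.1e-05). Traf1, which NF-kB is known to induce, stood at 0.201 to 0.55 FPKM in SCPs and 2.78 to 4.76 FPKM in RSCs (log2 difference 1.74, SE 0.26). Fadd, the adaptor gene of death receptors, had 0 in all SCP tables, and its RSC values were listed as 8.91, 14.1 and 6.10 FPKM. With unnamed transcripts of its locus Fadd stood at 13.4, 10.7 and 12.1 FPKM in SCPs and at 19.7, 24.7 and 16.9 FPKM in RSCs. The groups stayed apart, but the log2 difference was 0.70 (SE 0.16, limma, adjusted p = 0.0078), against 3.35 without them. Ripk1 and Birc2 were the other genes called higher in RSCs, with log2 differences of 1.12 and 1.09.

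Of 13 tested effectors of cell death, 2 were called higher in RSCs and 2 in SCPs, with a median log2 difference of 0.21, and neither count stood out from the 18.1% and 22.4% of all tested genes. Ripk3, a kinase of necroptosis, stood at 1.70, 1.58 and 2.69 FPKM in SCPs and at 15.7, 15.8 and 7.93 FPKM in RSCs (log2 difference 2.2, SE 0.32, limma, adjusted p = 0.0024). Apaf1, the scaffold of the apoptosome, and Casp6 were called higher in SCPs, with log2 differences of -1.07 and -0.81, calls that were lost in 12 and 11 of 18 alternatives. Casp8, the initiator caspase of death receptors, stood at 1.34 to 1.41 FPKM in SCPs and 0.683 to 3.49 FPKM in RSCs and was not called.

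Of 18 tested genes of the NF-kB pathway, 8 were called higher in RSCs and 3 in SCPs, with a median log2 difference of 0.84, against 18.1% and 22.4% of all tested genes. Of the 8, Relb reached the filter through RSCs alone, so its direction was set by it. Relb, a subunit of the noncanonical pathway, had 0 in all SCP tables and stood at 21.2, 16.2 and 16.1 FPKM in RSCs, and no unnamed transcript changed these values. Nfkbia, the inhibitor IkB alpha, which NF-kB itself induces, stood at 10.7, 15.4 and 17.4 FPKM in SCPs and at 279, 226 and 243 FPKM in RSCs. Nfkbia was far apart between the groups, with a log2 difference of 4.04 (SE 0.19, limma, adjusted p = 4.6e-05). Higher in SCPs were Map3k7, the kinase TAK1, its partner Tab1, and Chuk, with log2 differences of -1.02, -0.71 and -0.52, of which the first lost its call in 10 and the next in 7 of 18 alternatives. Of the TNF response genes, 7 of 12 tested were called higher in RSCs and 0 in SCPs, beside the same 18.1% and 22.4%, with a median log2 difference of 1.20. Of the 7, Tnfaip2 reached the filter through RSCs alone. Ier3, an immediate early gene, stood at 9.19, 12.7 and 9.69 FPKM in SCPs and at 150, 144 and 171 FPKM in RSCs (log2 difference 3.77, SE 0.14). Csf1, the growth factor of macrophages, stood at 0.922, 2.74 and 0 FPKM in SCPs and at 17.6, 25.2 and 25.4 FPKM in RSCs (log2 difference 3.60, SE 0.49). Of the 5 genes of ligand shedding, Rhbdf2, a partner of the TNF convertase ADAM17, was called higher in RSCs (log2 difference 1.88, SE 0.47), a call lost in 6 of 18 alternatives. Adam17 itself stood at 19.4 to 23.3 FPKM in SCPs and 26.0 to 29.9 FPKM in RSCs and was not called (log2 difference 0.38, limma, adjusted p = 0.037).

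**Figure D4:**
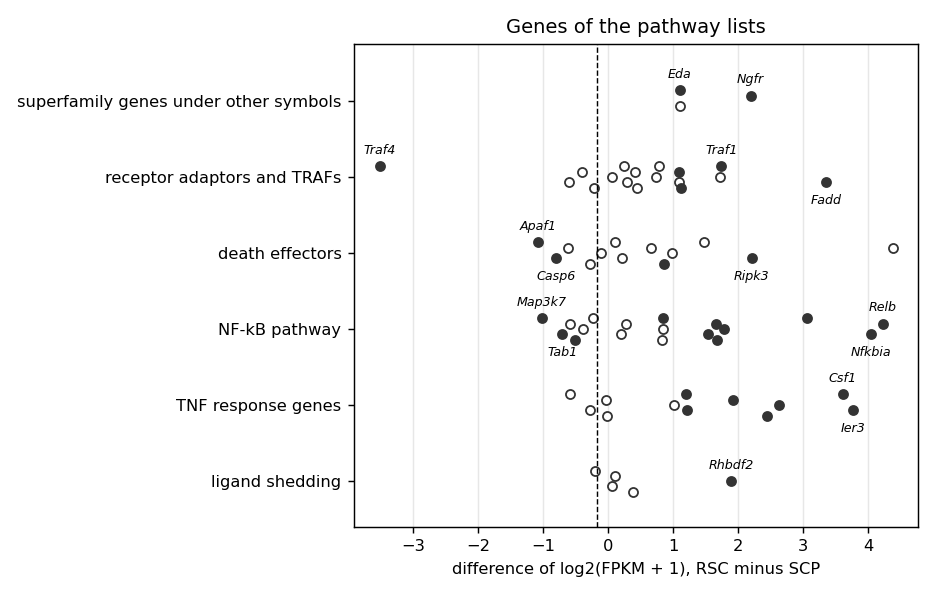
Difference of log2(FPKM + 1), RSC minus SCP (horizontal axis), for the tested genes of 6 pathway lists (rows), where filled points passed p under 0.01 in limma and open points did not. The dashed line is the median of all tested genes, -0.17, and the genes named in the plot include Relb at 4.22 and Traf4 at -3.52.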

How the data were processed

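Bulk RNA of 3 SCP and 3 RSC samples was sequenced, and groups and replicate numbers came from the sample labels. The submitters' processing notes name FastQC 0.11.2, TopHat2 2.1.0, Cufflinks 2.2.1 and the rn6 build. The authors deposited Cufflinks output per sample, which gives each transcript's FPKM, normalized for transcript length and mapped fragments. The deposited tables also give read coverage, the signal from which relative depth (coverage per FPKM) was taken. Each table lists the same 61743 named transcripts and others, unnamed and assembled per sample, which held 18.6% to 31.9% of the FPKM. Transcripts whose gene names had become dates, 77 per sample, were left out. FPKM of named transcripts were summed by symbol, and positions count from 1.

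The fit (limma 3.58.1, R 4.3.3, eBayes with a trend, unblocked, two-sided) used log2(FPKM + 1) of genes averaging 1 FPKM or more, at the study's thresholds of an unadjusted p of 0.01 and a log2 difference of 2. The Benjamini-Hochberg method adjusted p over the 13003 genes of the fit. No count test was possible because the tables hold no counts, and no interval or detection limit is given here. A 0 can be a failed estimate, and the status that Cufflinks lists for each estimate was not used. The p-values set the group difference against the spread within groups. The labels do not say that replicates came from separate litters or rats, so that spread may not be one between animals. The fit was tested on simulated data.

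The members and the lists of pathway and marker genes were chosen with earlier results of these data known. Every member is reported. Named pathway genes are, per list and direction, the 2 called genes that changed most, and not all genes so chosen are reported here. Chuk, Ripk1, Birc2, Casp8, Adam17 and Ltbr were named after their values were seen. The settings tried in turn were a replicate block, median-of-ratios scaling, quantile normalization, a pseudocount of 0.1, a filter at 5 FPKM or none, a fit without the trend, adjusted p, the highest transcript per gene, unnamed transcripts by overlap, values of 0 left out where another sample of the group reached 5 FPKM, and each sample left out. Unnamed transcripts of the same Cufflinks locus were added after seeing the data. Promoters are 300-base RefSeq windows.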

Additional observations from a re-analysis of the deposited data

Results flagged for a closer look

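Unnamed transcripts, which are outside the sums by gene symbol, held a mean over the 6 samples of more than 1 FPKM at the loci of 3 members. The mean was 3.22 FPKM at Tnfrsf10b, 4.49 FPKM at Tnfrsf19 and 1.30 FPKM at Tnfsf18. At Tnfrsf10b they were highest in SCP replicate 1, and at Tnfsf18 they were found in all 3 RSC samples and in no SCP sample.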

How the results depend on the processing

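Members called higher in RSCs were 13, and 4 of the 5 members that remained testable at a mean of at least 5 FPKM. Members over 4-fold higher in RSCs were 5, and 10 with a pseudocount of 0.1. Leaving out each sample gave 9 to 12 members called higher in RSCs and 4 to 6 over 4-fold. No alternative called a member higher in SCPs. Tnfrsf19 reversed to 0.11 with unnamed transcripts by overlap and by locus. The calls of Tnf, Tnfrsf1a, Tnfrsf1b, Tnfrsf9, Tnfrsf11a, Tnfrsf12a, Tnfrsf21, Tnfrsf26 and Tnfsf13b held under every alternative in which they were tested. Of these, Tnf, Tnfrsf1b, Tnfrsf9, Tnfrsf11a and Tnfsf13b reached the main filter through RSCs alone, so their direction was set by it. Of the named pathway genes, Apaf1 lost its call in 12 of 18 alternatives, Casp6 in 11 and Map3k7 in 10. Median-of-ratios scaling moved the median of all genes by 0.19. Deviations of same-numbered samples correlated at 0.044, -0.0049 and 0.026, and those of the other pairs at -0.048 to 0.022. With 3 samples per group, such values cannot tell whether same-numbered samples were prepared together. With the replicate block, 10 members were called higher in RSCs, and Cd40, Fas and Tnfsf9 were not. Depth is unknown, so for the 21 untested members a low value cannot be told from a missed one.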
